A study of Mus musculus with 6 samples.

Results

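The genes described here are 10 genes by which tuft cells of the gut sense their surroundings and answer them: *Dclk1*, *Trpm5*, *Gnat3*, *Sucnr1*, *Il17rb*, *Il25*, *Alox5*, *Alox5ap*, *Ptgs1* and *Hpgds*. They were chosen by symbol, and all 10 were found among the 32285 genes of the deposited matrices. They were measured by droplet-based single-cell RNA-sequencing in jejunal epithelium of male C57BL/6J mice of about 30 weeks of age, killed 5 weeks after surgery and after an overnight fast. Mice had received a low-fat diet with sham surgery (LFD sham, 3 mice pooled), a high-fat diet with sham surgery (HFD sham, 3 mice pooled) or a high-fat diet with vertical sleeve gastrectomy, the removal of most of the stomach (HFD VSG, 2 mice pooled), with 16 weeks of diet before surgery. Each group gave 1 crypt-labelled and 1 villus-labelled library, 6 in all, so no comparison between groups had replicates and no test was made. All intervals given are 95% intervals that cover counting error alone.

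Tuft cells are rare chemosensory cells of the epithelium. Ligands in the lumen act on receptors such as the succinate receptor Sucnr1. Receptors act through G proteins, among them gustducin (Gnat3), and calcium release then opens the cation channel Trpm5. Stimulated tuft cells release the cytokine interleukin 25 and lipid mediators, namely leukotrienes made by Alox5 with its activating protein Alox5ap, and prostaglandins made by Ptgs1, of which Hpgds makes prostaglandin D2. In parasite infection interleukin 25 activates group 2 innate lymphoid cells, whose interleukin 13 turns epithelial progenitors towards more tuft and goblet cells. Il17rb is the receptor subunit that binds interleukin 25, and Dclk1 is a microtubule-associated kinase widely used to mark tuft cells.

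All 10 are protein-coding genes in GENCODE vM21 (GRCm38). Pou2f3, the transcription factor that tuft cells need, belongs to the POU family, whose members bind the octamer ATGCAAAT. That motif was searched on both strands, without mismatch, in RefSeq promoters (GRCm38.p6) that run from 250 bases before a gene's start to 50 bases after it. Promoters were in the table for 8 of the 10 genes. The octamer stood in the promoters of *Sucnr1* and *Hpgds*, and in 1.74% of all 32851 promoters. The 250 bases before the RefSeq start of these 2 genes are printed 5′ to 3′ on the gene's strand, with the octamer in capitals, because they are the promoters that hold it. It begins at position -48 in *Sucnr1* (chr3:60081619-60081868, plus strand) and at -174 in *Hpgds* (chr6:65144731-65144980, minus strand). The RefSeq start of *Hpgds* lies inside the gene as GENCODE draws it, which begins at 65144908 on the minus strand, so most of the printed stretch, the octamer included, is within that gene model.
Sucnr1: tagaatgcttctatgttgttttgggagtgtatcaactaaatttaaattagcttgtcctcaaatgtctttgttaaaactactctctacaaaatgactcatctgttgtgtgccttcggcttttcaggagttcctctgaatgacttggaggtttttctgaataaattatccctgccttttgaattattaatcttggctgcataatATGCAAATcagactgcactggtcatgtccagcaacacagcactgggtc
Hpgds: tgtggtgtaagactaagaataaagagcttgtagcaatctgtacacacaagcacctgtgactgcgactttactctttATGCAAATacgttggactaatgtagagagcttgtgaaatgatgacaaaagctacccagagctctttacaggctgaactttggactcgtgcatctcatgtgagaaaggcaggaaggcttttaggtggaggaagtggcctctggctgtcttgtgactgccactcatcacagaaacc
A match describes the letters and is no evidence of binding.

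After filters and the removal of doublets, 23006 cells remained, and 21755 of them were not immune-like. Cells were clustered without the 10 genes, and 1 of 18 clusters, with 189 cells, was called tuft-like from 12 markers that are none of the 10 (*Avil*, *Rgs13*, *Lrmp*, *Sh2d6*, *Sh2d7*, *Kctd12*, *Pou2f3*, *Bmx*, *Hmx2*, *Hmx3*, *Krt23* and *Strip2*). All 12 markers were detected in the tuft-like cells of each library, with at least 6 UMIs (unique molecular identifiers, the counted transcripts) of each. The tuft-like cells numbered 28 in LFD sham crypts, 53 in LFD sham villi, 10 in HFD sham crypts, 52 in HFD sham villi, 24 in HFD VSG crypts and 22 in HFD VSG villi, which is 0.740% (0.492 to 1.07), 1.55% (1.16 to 2.02), 0.369% (0.177 to 0.677), 1.51% (1.13 to 1.98), 0.527% (0.338 to 0.782) and 0.573% (0.359 to 0.866) of the cells of those libraries that were not immune-like (exact binomial intervals). Those cells include the unnamed clusters 3 and 5, among whose leading genes are genes of damaged droplets. These 2 clusters had 592 and 402 cells in LFD sham crypts and 274 and 119 in HFD VSG villi, so they weigh unequally on the shares. Defined instead by 4 of the 12 markers, the tuft-like share of HFD VSG villi was 1.17%, and with at most 10% mitochondrial UMIs that of HFD VSG crypts was 1.24%. The fraction labels did not match the cell content: crypt-labelled libraries held 1582 to 2732 enterocyte-like and 46 to 152 stem-like cells, whereas villus-labelled libraries held 978 to 1354 and 132 to 497, so the labels are used here as names alone. Depth differed between libraries, with a median of 4144 UMIs per tuft-like cell in HFD sham crypts and 19987 in HFD VSG villi. All results for HFD sham crypts rest on 10 cells.

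The 10 genes were far higher in tuft-like cells than in the other cell classes. In CPM (a gene's UMIs summed over the cells of a class, per 1000000 UMIs of those cells), 9 of the 10 were highest in tuft-like cells in all 6 libraries, where 4.2% of the 7984 genes with at least 20 UMIs in tuft-like cells were. The exception was *Il25*, which had 0 UMIs in the 52 tuft-like cells of HFD sham villi and was highest in tuft-like cells in the other 5 libraries. Cells had been grouped by genes that vary with these 10, so the pattern is a description.

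Pooled over libraries, *Dclk1* stood at 1746 CPM (interval 1684 to 1809) in tuft-like cells and at 18.0 CPM in enteroendocrine-like (EEC-like) cells, the next class. Of the 29 *Dclk1* UMIs in EEC-like cells, 17 and 11 came from 1 cell each. *Alox5ap* stood at 817 CPM (775 to 861), *Trpm5* at 646 CPM (609 to 685) and *Hpgds* at 403 CPM (374 to 435). *Alox5* reached 269 CPM (245 to 294) and *Ptgs1* 221 CPM (199 to 244). *Gnat3* and *Il17rb* were at 80.2 CPM each (67.4 to 94.8), *Sucnr1* at 49.99 CPM (40.0 to 61.7) and *Il25* at 14.0 CPM (8.94 to 20.8). Levels in CPM of 3′ tags count transcripts without a length term, so this order is that of tag counts. In that order neighbours had separate intervals, except *Gnat3* and *Il17rb*, which were equal.

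**Figure D1:**
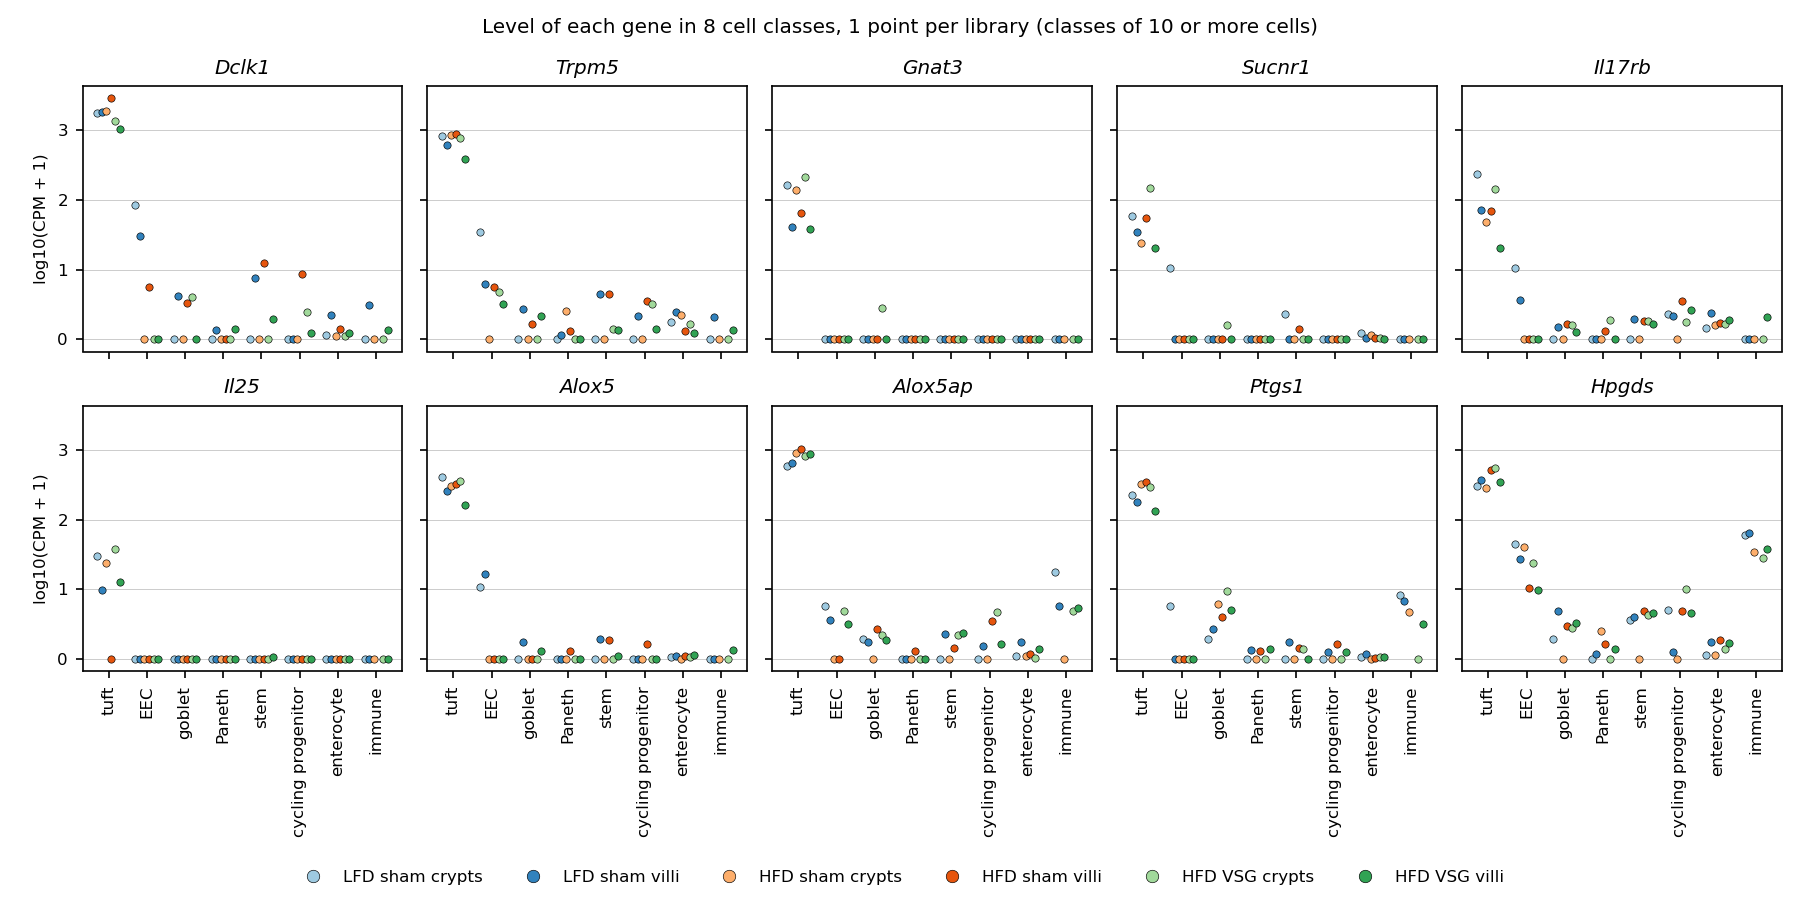
Each panel plots 1 gene, with the 8 named cell classes on the horizontal axis and log10(CPM + 1) on the vertical axis, and each point is 1 library with at least 10 cells of that class. The tuft-like points stand above all other classes in every panel except for *Il25* in HFD sham villi, which is at 0, and *Hpgds* shows a further level in immune-like and EEC-like cells.

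The genes differed in how much of their signal lay outside tuft-like cells, which were 0.822% of all cells. Tuft-like cells held 91.4% of all *Gnat3* UMIs, 91.1% of *Dclk1*, 87.5% of *Alox5*, 85.7% of *Il25* and 85.0% of *Alox5ap*. *Trpm5*, *Sucnr1* and *Ptgs1* followed with 80.8%, 76.1% and 75.2%. *Hpgds* and *Il17rb* were the least concentrated, with 48.4% and 31.9%.

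*Hpgds* had its largest level outside tuft-like cells in the immune-like class, at 47.3 CPM (41.7 to 53.3), which is 8.54-fold below the tuft-like level (7.39 to 9.88). A UMI of it was found in 213 of 1251 immune-like cells (17.0%, median depth 3675 UMIs), against 73 of 9986 enterocyte-like cells (0.731%, median depth 15703). Per library it stood at 60.2 CPM in LFD sham crypts, 63.7 in LFD sham villi, 33.2 in HFD sham crypts, 27.3 in HFD VSG crypts and 37.6 in HFD VSG villi, and HFD sham villi had 5 immune-like cells with 0 UMIs. Hpgds is also known from mast cells and some lymphocytes. Among immune-like cells with an *Hpgds* UMI, 17.4% held a mast cell marker, against 20.4% of those without, and the shares were 23.9% and 22.7% for markers of group 2 innate lymphoid cells, 19.7% and 23.9% for macrophage and dendritic cell markers, and 16.9% and 10.0% for B and plasma cell markers. *Hpgds* was also seen in EEC-like cells at 21.8 CPM (15.2 to 30.3), in 25 of 186 cells.

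*Il17rb* lay thinly in many classes. It had 125 UMIs in enterocyte-like cells at 0.759 CPM (0.632 to 0.905), and 1.49 CPM (1.00 to 2.15) in cycling progenitor-like cells. Droplets with under 100 UMIs, which hold free RNA, had 0.780 CPM of *Il17rb* from 13 UMIs. *Il17rb* overlaps *Actr8* on the opposite strand in the annotation, and whether the counting used strand is not given in the sources used here. The same holds for *Trpm5* with *Tssc4*, and *Dclk1*, *Alox5ap*, *Ptgs1* and *Hpgds* overlap predicted or noncoding genes.

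A share of the remaining signal was in an unnamed cluster of 1496 shallow cells (median 2068 UMIs) led by haemoglobin genes, *AY036118* and *Gm42418*, with the tuft marker *Rgs13* among its 10 leading genes. It was the next class after tuft-like cells for *Gnat3* (1.95 CPM), *Il25* (0.731 CPM) and *Alox5ap* (15.4 CPM), and 20 of its cells held at least 4 of the 12 tuft markers. Beyond the tuft-like cluster, 58 of 22817 cells held as many markers, whereas all 189 tuft-like cells did.

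*Dclk1* (ENSMUSG00000027797, chr3:55242364-55539068, plus strand) is the most abundant of the 10 by tag counts. In tuft-like cells it stood at 1787 CPM in LFD sham crypts, 1835 in LFD sham villi, 1892 in HFD sham crypts, 2892 in HFD sham villi, 1377 in HFD VSG crypts and 1049.7 in HFD VSG villi. HFD sham villi lay above all other libraries and HFD VSG villi below them, in each case without overlap of the intervals (2712 to 3080 and 963 to 1142 CPM). A *Dclk1* UMI was present in 179 of 189 tuft-like cells, and the 10 cells without one comprised 5 of 22 in HFD VSG villi, 3 of 24 in HFD VSG crypts and 1 in each LFD sham library.

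*Trpm5* (ENSMUSG00000009246, chr7:143069153-143094642, minus strand) encodes the cation channel that depolarises chemosensory cells. Its levels were 818 CPM in LFD sham crypts, 605 in LFD sham villi, 864 in HFD sham crypts, 891 in HFD sham villi, 784 in HFD VSG crypts and 390 in HFD VSG villi. The last was below the other 5 (338 to 448 CPM, where the nearest interval began at 535). *Gnat3* (ENSMUSG00000028777, chr5:17962549-18019834, plus strand) encodes gustducin, the G protein alpha subunit of taste cells. It stood at 164 CPM in LFD sham crypts, 140 in HFD sham crypts and 215 in HFD VSG crypts, against 40.3, 63.0 and 37.1 CPM in the villus-labelled libraries of the same groups. All 3 crypt-labelled values were above all 3 villus-labelled ones, although 26 of the 46 UMIs in HFD VSG crypts came from 1 cell.

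Among the receptors, *Sucnr1* (ENSMUSG00000027762, chr3:60081869-60087566, plus strand) senses succinate made by gut microbes. It had 10 UMIs (58.4 CPM) in LFD sham crypts, 15 (33.6 CPM) in LFD sham villi, 1 (23.4 CPM) in HFD sham crypts, 18 (54.0 CPM) in HFD sham villi, 32 (149 CPM) in HFD VSG crypts and 10 (19.5 CPM) in HFD VSG villi. HFD VSG crypts stood highest, with an interval of 102 to 211 CPM that overlapped those of LFD sham crypts and HFD sham crypts. *Il17rb* (ENSMUSG00000015966, chr14:29996135-30008896, minus strand) had 234 CPM in LFD sham crypts, 71.7 in LFD sham villi, 46.7 in HFD sham crypts (2 UMIs), 69.0 in HFD sham villi, 145 in HFD VSG crypts and 19.5 in HFD VSG villi. The interval of HFD VSG villi (9.36 to 35.9 CPM) lay below those of all other libraries except HFD sham crypts.

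*Il25* (ENSMUSG00000040770, chr14:54932695-54935837, plus strand), the cytokine, was near the limit of detection. It had 5 UMIs in LFD sham crypts, 4 in LFD sham villi, 1 in HFD sham crypts, 0 in HFD sham villi, 8 in HFD VSG crypts and 6 in HFD VSG villi, in 17 of 189 cells. The 0 in HFD sham villi has an upper limit of 11.1 CPM. The interval of HFD VSG crypts (16.1 to 73.6 CPM) lay above that limit, although 4 of its 8 UMIs came from 1 cell, and the intervals of the other 4 libraries reached below it. In crypt-labelled libraries no difference between groups in *Il25* was detectable at this depth.

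The leukotriene genes behaved differently from each other. *Alox5* (ENSMUSG00000025701, chr6:116410077-116461178, minus strand), the 5-lipoxygenase, stood at 403 CPM in LFD sham crypts, 258 in LFD sham villi, 304 in HFD sham crypts, 321 in HFD sham villi, 355 in HFD VSG crypts and 160 in HFD VSG villi, the last with an interval of 127 to 199 CPM that overlapped only that of HFD sham crypts (162 to 519 CPM). *Alox5ap* (ENSMUSG00000060063, chr5:149264767-149288153, plus strand), which presents arachidonic acid to Alox5, stood at 584 CPM in LFD sham crypts, 656 in LFD sham villi, 911 in HFD sham crypts, 1044 in HFD sham villi, 812 in HFD VSG crypts and 880 in HFD VSG villi. Both LFD sham values of *Alox5ap* were below all 4 high-fat ones, but the intervals of LFD sham crypts (475 to 710 CPM) and LFD sham villi (583 to 736 CPM) both overlapped those of HFD sham crypts and HFD VSG crypts.

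Of the prostaglandin genes, *Ptgs1* (ENSMUSG00000047250, chr2:36230426-36252272, plus strand), the constitutive cyclooxygenase, had 228 CPM in LFD sham crypts, 179 in LFD sham villi, 327 in HFD sham crypts, 345 in HFD sham villi, 299 in HFD VSG crypts and 133 in HFD VSG villi. HFD VSG villi and LFD sham villi had the lowest values and their intervals overlapped (103 to 168 and 142 to 223 CPM). *Hpgds* (ENSMUSG00000029919, chr6:65117293-65144908, minus strand), the haematopoietic prostaglandin D synthase, had 304 CPM in LFD sham crypts, 365 in LFD sham villi, 280 in HFD sham crypts, 519 in HFD sham villi, 556 in HFD VSG crypts and 341 in HFD VSG villi. HFD sham villi and HFD VSG crypts were the highest, with intervals of 445 to 602 and 460 to 665 CPM that overlapped only that of HFD sham crypts (145 to 489 CPM).

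**Figure D2:**
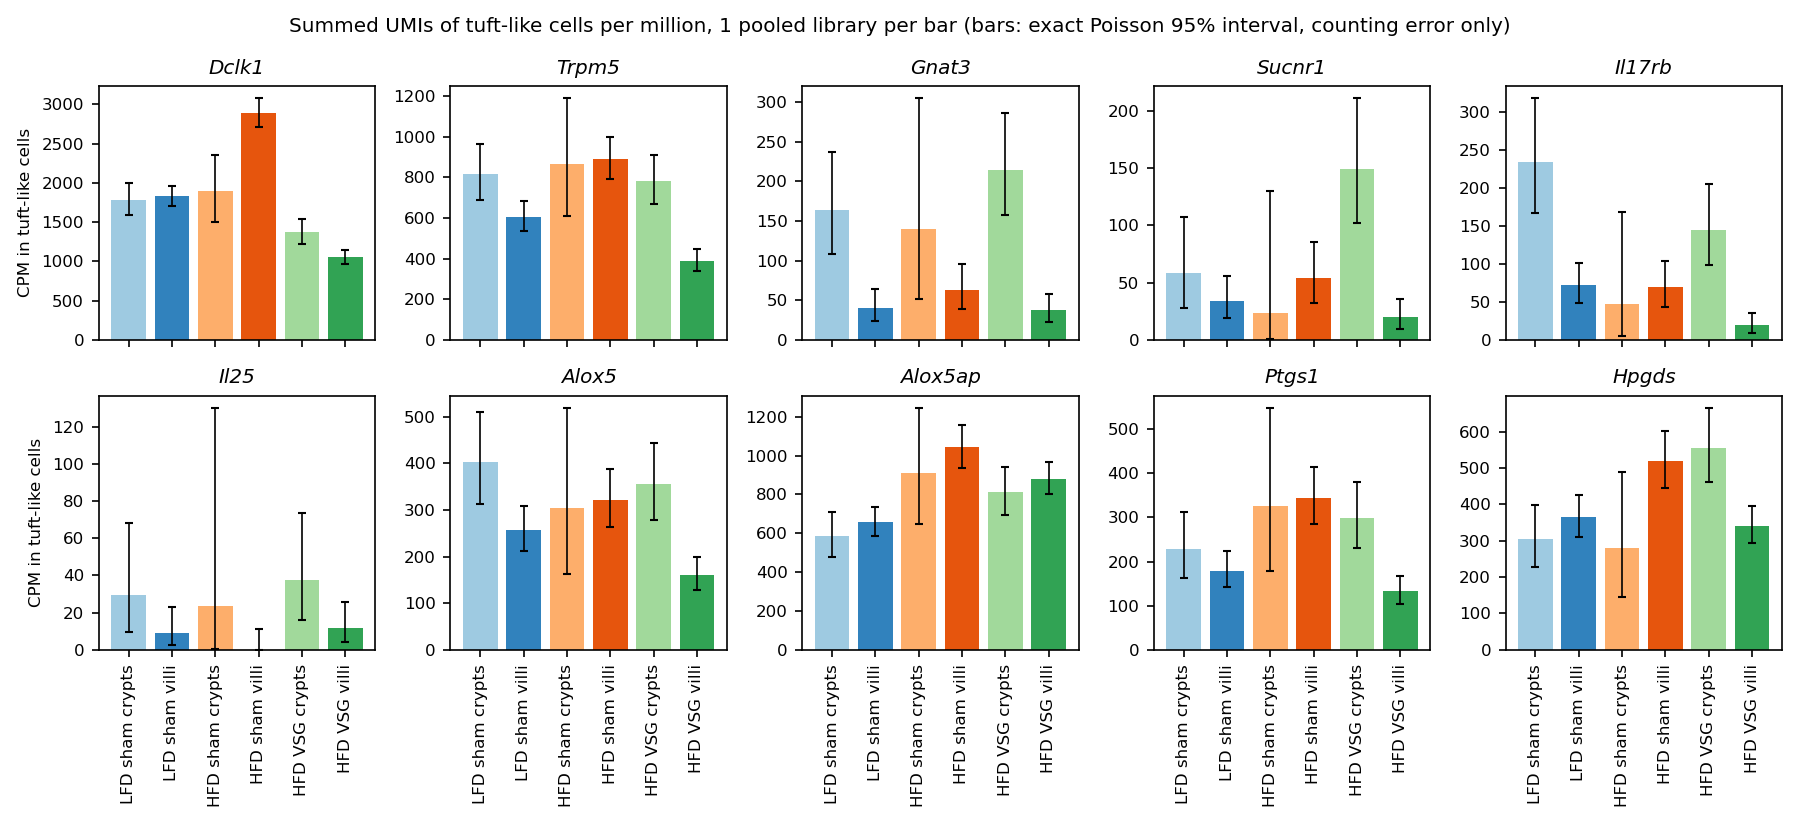
Each panel plots the CPM of 1 gene in the tuft-like cells of the 6 libraries, 1 bar per pooled library with its exact Poisson 95% interval. *Dclk1* is highest in HFD sham villi at 2892 CPM and lowest in HFD VSG villi at 1049.7 CPM, *Gnat3* is higher in each crypt-labelled library than in each villus-labelled one, and *Il25* has 0 UMIs in HFD sham villi.

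Groups were compared by the log2 ratio of CPM in tuft-like cells, and a difference of 2-fold or more was noted where both libraries together averaged at least 20 UMIs of the gene. The HFD sham libraries enter both the diet and the surgery comparison, so those comparisons share libraries. The authors of the data estimated a larger share of free RNA in both HFD sham libraries than in any other, with crypts highest. The ratios here use counts without their correction, and the part of that difference was not tested. In the diet comparison of villus-labelled libraries, *Dclk1*, *Trpm5*, *Alox5ap*, *Ptgs1* and *Hpgds* were higher in HFD sham than in LFD sham, with intervals above 0, by 0.66, 0.56, 0.67, 0.94 and 0.51 on the log2 scale. *Il17rb* differed by -0.06 (-0.89 to 0.76) and *Alox5* by 0.32 (-0.08 to 0.71). None of the 7 genes with enough UMIs was 2-fold higher or lower, where 1.56% of 3325 genes were higher and 1.41% lower. Their median was 0.56, where that of all tested genes was 0.04. The 10 genes summed were at 6198 CPM in HFD sham villi and 4053 CPM in LFD sham villi, a log2 ratio of 0.61 (0.52 to 0.70). *Dclk1* alone gave 964 of the 2066 UMIs of the sum in HFD sham villi and 819 of 1809 in LFD sham villi. Relative to the 12 tuft markers, which were themselves higher in HFD sham villi by 0.28 (0.22 to 0.34), the ratio of the sum was 0.34, and with doublets kept it was 0.25. On the same scale *Hpgds* was at 0.23 with an interval across 0 (-0.09 to 0.55), and the intervals of *Dclk1*, *Trpm5*, *Alox5ap* and *Ptgs1* stayed above 0. Here and below, an interval relative to the markers is the gene's own shifted by the marker ratio. It leaves out the counting error of the markers and is therefore too narrow. Goblet markers were at 2328 CPM in HFD sham villi, where 441 of 776 UMIs came from 1 cell, and at 968 CPM in LFD sham villi, where 30 of 432 did. Stem markers were at 594 and 1302 CPM and the median depth at 5945 and 8022 UMIs, and the part of these measures was not tested.

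In crypt-labelled libraries the sum was 4811 CPM in HFD sham and 4608 CPM in LFD sham, a log2 ratio of 0.06 (-0.17 to 0.29). It was -0.22 relative to the 12 tuft markers. *Alox5ap* was higher by 0.64 (0.07 to 1.19), close to its value in villus-labelled libraries, but relative to the 12 tuft markers by 0.36 with an interval across 0 (-0.21 to 0.91). *Il17rb*, with 2 UMIs against 40, was lower by 2-fold or more, and was the 1 gene of 7 to be so, where 7.86% of 725 genes were lower and 3.03% higher. Set to 3 UMIs, its ratio was -1.74, and the interval from the counts themselves was -5.42 to -0.38.

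Villus-labelled tuft-like cells of HFD VSG had lower levels of most of these genes per UMI than those of HFD sham, and so had lower levels of the tuft markers. Of 7 genes with enough UMIs, 4 were lower by 2-fold or more in HFD VSG than in HFD sham, where 10.6% of 3409 genes were lower and 7.36% higher. These were *Dclk1* at -1.46 (-1.62 to -1.31), *Ptgs1* at -1.38 (-1.83 to -0.93), *Trpm5* at -1.19 (-1.46 to -0.93) and *Alox5* at -1.0045 (-1.44 to -0.58). *Hpgds* was at -0.60 (-0.92 to -0.29), *Gnat3* at -0.76 (-1.74 to 0.20) and *Alox5ap* was nearest to 0 at -0.25 (-0.45 to -0.04). With fewer UMIs, *Sucnr1* was at -1.47 (-2.75 to -0.28) and *Il17rb* at -1.82 (-3.06 to -0.69). These calls depended on the scaling. Relative to the 12 tuft markers, themselves lower by -0.77, 0 of the 7 genes were 2-fold lower, with *Dclk1* at -0.69, *Ptgs1* at -0.61, *Trpm5* at -0.42 and *Alox5* at -0.24, and *Alox5ap* and *Hpgds* lay above 0, at 0.52 (0.32 to 0.73) and 0.16 (-0.15 to 0.47). With median-of-ratios scaling *Alox5* was at -0.83 and the other 3 stayed beyond 2-fold. The median of the 7 was -1.0045, where that of all tested genes was -0.07. The cell holding the most *Dclk1* UMIs in HFD VSG villi held 13.6% of them, and for *Trpm5*, *Alox5* and *Ptgs1* the top cell held 12%, 15.9% and 22.1%.

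Summed, the 10 genes were at 3042 CPM in HFD VSG villi, a log2 ratio of -1.03 (-1.12 to -0.93) to HFD sham villi. *Dclk1* alone gave 538 of the 1559 UMIs of the sum in HFD VSG villi and 964 of 2066 in HFD sham villi. Several other measures of these cells moved with the sum. The 12 tuft markers were at 7738 CPM against 13170 CPM, a log2 ratio of -0.77 (-0.83 to -0.70), and relative to them the sum of the 10 genes differed by -0.26. The cells held a median of 19987 UMIs against 5945. Of markers of other classes, all 9 goblet markers were detected in both libraries, at 7559 CPM in HFD VSG villi and 2328 CPM in HFD sham villi. In HFD VSG villi 1 cell gave 3593 of the 3874 UMIs, and in HFD sham villi 1 cell gave 441 of the 776. Paneth markers were at 777 CPM (8 of 10 detected) against 5559 CPM (10 of 10), and enterocyte markers at 4433 CPM against 4146 CPM. Thinned to 1500 UMIs per cell the ratio was -1.08, and without tuft-like cells with at least as many UMIs of goblet, EEC or immune markers as of tuft markers it was -1.08 as well. Thinning leaves the expected share of a gene within each cell unchanged, and the exclusion took 1 cell from each library. The part that these shifts take in the lower levels was not tested. Per cell, *Dclk1* had a UMI in 17 of 22 tuft-like cells of HFD VSG villi and 52 of 52 of HFD sham villi, with medians of 20 and 17 UMIs. *Trpm5* had one in 22 of 22 and 52 of 52 cells (medians 6 and 5 UMIs), *Alox5* in 14 of 22 and 39 of 52 (1 and 2) and *Ptgs1* in 11 of 22 and 39 of 52 (0 and 2). Thinned to 1500 UMIs per cell, the shares with a UMI were lower in HFD VSG villi for all 4, at 59.1% and 100% for *Dclk1*, 22.7% and 69.2% for *Trpm5*, 13.6% and 40.4% for *Alox5* and 18.2% and 48.1% for *Ptgs1*.

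In crypt-labelled libraries the sum was 4729 CPM in HFD VSG and 4811 CPM in HFD sham (-0.02, -0.24 to 0.20; -0.30 with at most 10% mitochondrial UMIs), and 0 of 7 genes differed by 2-fold, where 17.5% of 1030 genes were higher and 2.33% lower. *Dclk1* was lower by -0.46 (-0.82 to -0.08) and *Hpgds* higher by 0.99 (0.13 to 1.98), the latter with 119 UMIs against 12. Among genes with too few UMIs, *Sucnr1* had 32 against 1 and *Il17rb* 31 against 2. With the smaller count set to 3, their ratios were 1.09 and 1.05, opposite in sign to those in villus-labelled libraries. Intervals from the counts themselves were 0.10 to 8.03 and -0.34 to 4.74. *Il25* had 8 UMIs against 1. Relative to the 12 tuft markers, at -0.21, *Dclk1* was at -0.25 with an interval across 0 (-0.60 to 0.13) and *Hpgds* at 1.20 (0.34 to 2.19). Other measures of these cells differed too. Immune markers were at 1162 CPM in HFD VSG crypts (11 of 12 detected) and 257 CPM in HFD sham crypts (1 of 12, *Ptprc*). *Ptprc* alone was at 355 and 257 CPM. Paneth markers were at 990 and 2218 CPM and enterocyte markers at 12731 and 17444 CPM. Median depths were 8423 and 4144 UMIs and median mitochondrial shares 7.73% and 11.1%. Their part was not tested.

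Against LFD sham, the tuft-like cells of HFD VSG villi had a lower sum (-0.41, -0.51 to -0.32), and those of HFD VSG crypts did not differ beyond counting error (0.04, -0.10 to 0.17). Relative to the 12 tuft markers the villus-labelled value was 0.076, on the other side of 0, and with at most 10% mitochondrial UMIs it was -0.18. In the same cells goblet markers were at 7559 CPM in HFD VSG villi, where 3593 of 3874 UMIs came from 1 cell, and at 968 CPM in LFD sham villi. Paneth markers were at 777 and 4905 CPM and stem markers at 601 and 1302 CPM, with median depths of 19987 and 8022 UMIs. The part of these measures was not tested. *Dclk1* was lower in both fractions, by -0.81 (-0.97 to -0.65) in villus-labelled and -0.38 (-0.61 to -0.14) in crypt-labelled libraries. *Alox5ap* was higher in both, by 0.42 (0.21 to 0.64) and 0.48 (0.11 to 0.85). *Hpgds* was higher by 0.87 (0.39 to 1.37) in crypt-labelled libraries, whereas in villus-labelled ones it differed by -0.10 (-0.41 to 0.22), *Trpm5* by -0.63 (-0.90 to -0.36) and *Alox5* by -0.69 (-1.11 to -0.27). Relative to the tuft markers, at -0.49 in villus-labelled libraries, the values there were -0.32 (-0.48 to -0.16) for *Dclk1*, -0.14 (-0.41 to 0.13) for *Trpm5*, -0.20 (-0.62 to 0.22) for *Alox5*, 0.39 (0.08 to 0.71) for *Hpgds* and 0.91 (0.70 to 1.13) for *Alox5ap*. The villus-labelled value of *Alox5ap* per UMI was 0.14 when doublets were kept. *Il17rb* was lower by 2-fold or more in villus-labelled libraries (-1.88, -3.07 to -0.82), the 1 gene of 7, where 8.4% of 3786 genes were lower and 5.76% higher. *Sucnr1* was higher by 2-fold or more in crypt-labelled libraries (1.36, 0.29 to 2.54), the 1 gene of 9, where 6.17% of 1620 genes were higher and 2.53% lower.

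**Figure D3:**
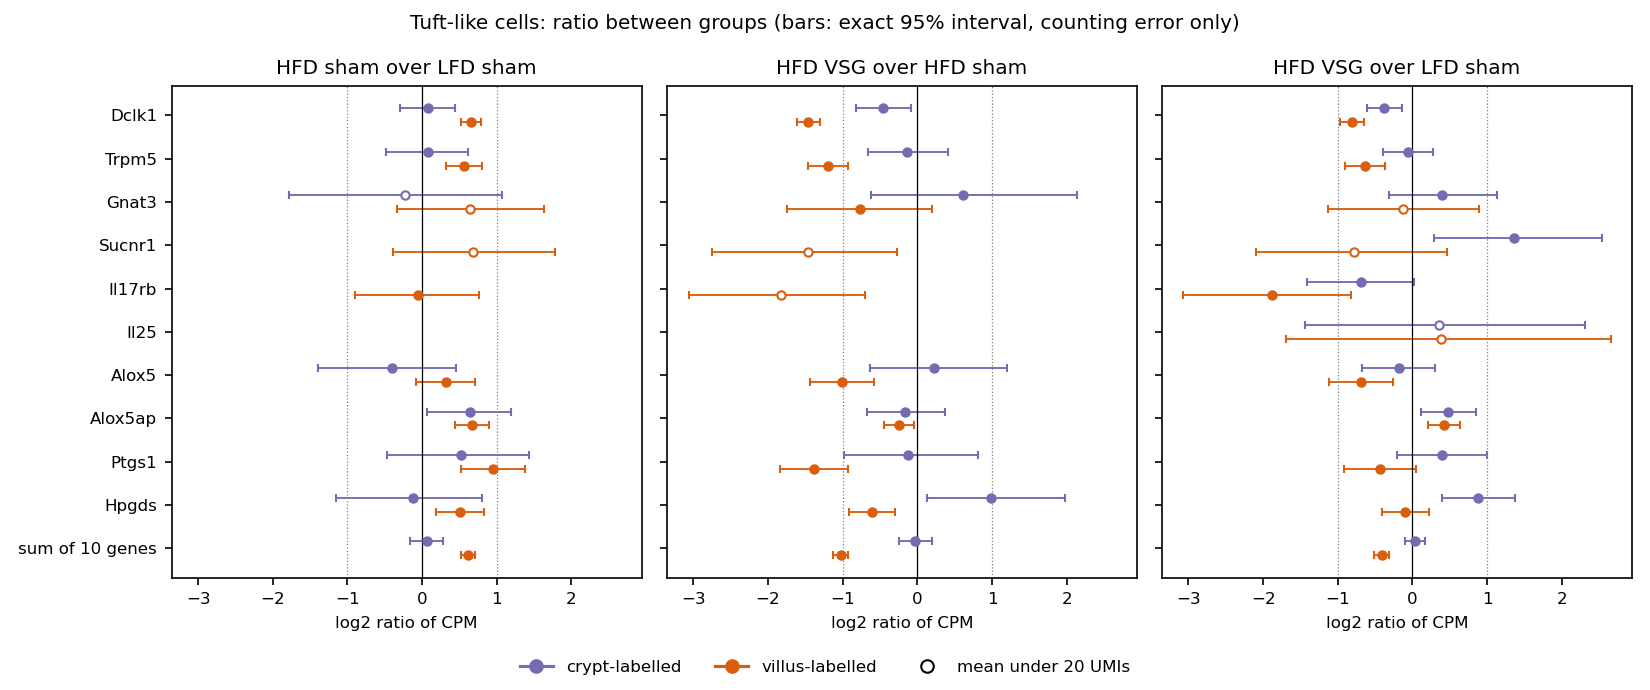
The 3 panels plot log2 ratios of CPM in tuft-like cells for HFD sham over LFD sham, HFD VSG over HFD sham and HFD VSG over LFD sham, with 1 row per gene, purple for crypt-labelled and orange for villus-labelled libraries, and exact 95% intervals. Open points have a mean under 20 UMIs, ratios with under 3 UMIs in a library are left out, and dotted lines mark 2-fold. In the middle panel the villus-labelled points of *Dclk1*, *Trpm5*, *Alox5* and *Ptgs1* lie at or beyond -1 while *Alox5ap* stays at -0.25, all before scaling to the tuft markers, relative to which none of them is beyond -1.

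Within each group the crypt-labelled and villus-labelled libraries could be set side by side. *Gnat3* was higher in the crypt-labelled library in all 3 groups, by 2.02 (1.11 to 2.96) in LFD sham, 1.15 (-0.45 to 2.51) in HFD sham and 2.53 (1.73 to 3.39) in HFD VSG on the log2 scale. The HFD sham value rests on 6 UMIs against 21. In crypt-labelled libraries 1 cell gave 10 of 28 *Gnat3* UMIs in LFD sham, 3 of 6 in HFD sham and 26 of 46 in HFD VSG. By cells with a UMI, at unequal depth, crypt-labelled libraries had 11 of 28, 3 of 10 and 11 of 24. Villus-labelled ones had 9 of 53, 16 of 52 and 8 of 22, so the shares in HFD sham were alike (30% and 30.8%). In LFD sham 4.28% of 2666 genes were higher in the crypt-labelled library by 2-fold or more and 7.35% lower, in HFD sham 2.81% of 1604 higher and 11.1% lower, and in HFD VSG 6.82% of 2964 higher and 4.79% lower. *Il17rb* was higher by 1.70 (1.00 to 2.42) in LFD sham and 2.89 (1.83 to 4.08) in HFD VSG, and had 2 UMIs in HFD sham crypts. *Sucnr1* was higher by 0.80 (-0.52 to 2.05) in LFD sham and 2.94 (1.88 to 4.13) in HFD VSG, and had 1 UMI in HFD sham crypts. In HFD VSG *Trpm5*, *Alox5* and *Ptgs1* were higher as well, by 1.01, 1.15 and 1.17, but relative to the 12 tuft markers (10584 CPM in HFD VSG crypts and 7738 in HFD VSG villi) by 0.56, 0.70 and 0.72, under 2-fold. *Gnat3* relative to the markers was at 2.13, 1.26 and 2.08 in the 3 groups. *Alox5ap*, in contrast, differed by -0.17, -0.20 and -0.12 in the 3 groups, with all 3 intervals crossing 0 before scaling to the markers. Relative to the markers it was at -0.06, -0.09 and -0.57. *Dclk1* showed no common direction, at -0.04, -0.61 and 0.39. Other measures differed between the fractions too. Enterocyte markers in tuft-like cells were at 13077, 17444 and 12731 CPM in crypt-labelled and 3258, 4146 and 4433 CPM in villus-labelled libraries of LFD sham, HFD sham and HFD VSG, all 10 detected in each. Paneth markers were at 1764, 2218 and 990 against 4905, 5559 and 777 CPM, and the median mitochondrial share was 11.8%, 11.1% and 7.73% against 8.79%, 7.72% and 4.90%. Their part in these ratios was not tested.

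**Figure D4:**
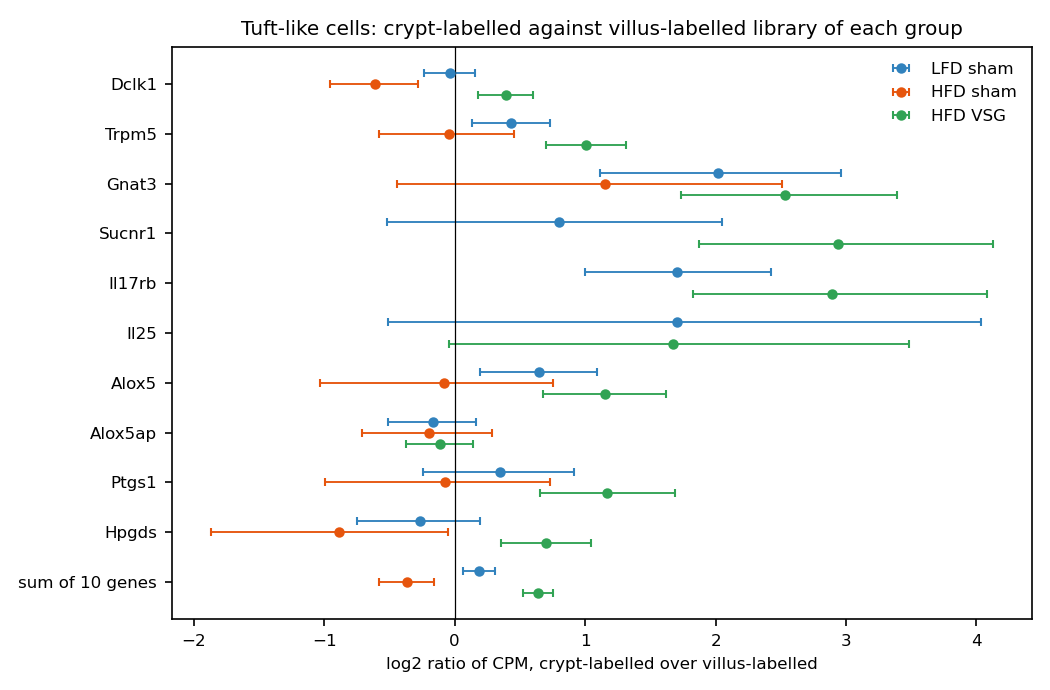
Log2 ratios of CPM in tuft-like cells, crypt-labelled over villus-labelled, are plotted for each gene and for the sum, 1 colour per group with exact 95% intervals, leaving out ratios with under 3 UMIs in a library. *Gnat3* lies right of 0 in all 3 groups and *Alox5ap* close to 0 in all 3, before scaling to the tuft markers.

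Single tuft-like cells differed in which of the genes they showed. The median cell held a UMI of 6 of the 10, with a range of 1 to 10, and 154 of 189 cells held 5 or more. Thinned to 1500 UMIs the median was 4. A UMI of *Trpm5* was found in 96.3% of tuft-like cells, of *Dclk1* in 94.7%, of *Alox5ap* in 92.6%, of *Hpgds* in 86.2%, of *Alox5* in 75.1% and of *Ptgs1* in 63.5%, at a median depth of 7509 UMIs. The receptors, the G protein and the cytokine were seen in fewer cells, with *Il17rb* in 38.6%, *Gnat3* in 30.7%, *Sucnr1* in 28.6% and *Il25* in 8.99%. In enterocyte-like cells, with a median depth of 15703 UMIs, the shares ran from 0 of 9986 cells for *Gnat3* and *Il25* (exact upper limits of 0.135% to 0.376% in single libraries, for cells with a UMI and not for cells that express the gene) to 1.22% for *Il17rb*. At 1500 UMIs per cell the tuft-like shares were 88.4% for *Dclk1*, 64.0% for *Trpm5*, 60.8% for *Alox5ap*, 40.7% for *Hpgds* and 1.59% for *Il25*, so the order of *Dclk1* and *Trpm5* depended on depth.

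Held together, *Dclk1* was found in 142 of the 142 cells with *Alox5* and in 37 of the 47 without it. *Alox5ap* was found in 137 of the 142 cells with *Alox5* and in 38 of the 47 without it. *Trpm5* was found in 56 of the 58 cells with *Gnat3* and 126 of the 131 without it, so the share was alike. All 17 cells with *Il25* held *Trpm5*, *Dclk1* and *Alox5*. Of the 172 cells without it, 165 held *Trpm5*, 162 *Dclk1* and 125 *Alox5*, so for *Trpm5* and *Dclk1* the shares were close. Across cells within a library, the median Spearman correlation of UMIs per depth was 0.41 between *Dclk1* and *Trpm5* (range over 6 libraries -0.16 to 0.84), 0.43 between *Dclk1* and *Alox5* (-0.47 to 0.88) and -0.07 between *Dclk1* and *Hpgds* (-0.17 to 0.28). The cells of a library share its depth, and the sign differed between libraries for all 3 pairs.

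**Figure D5:**
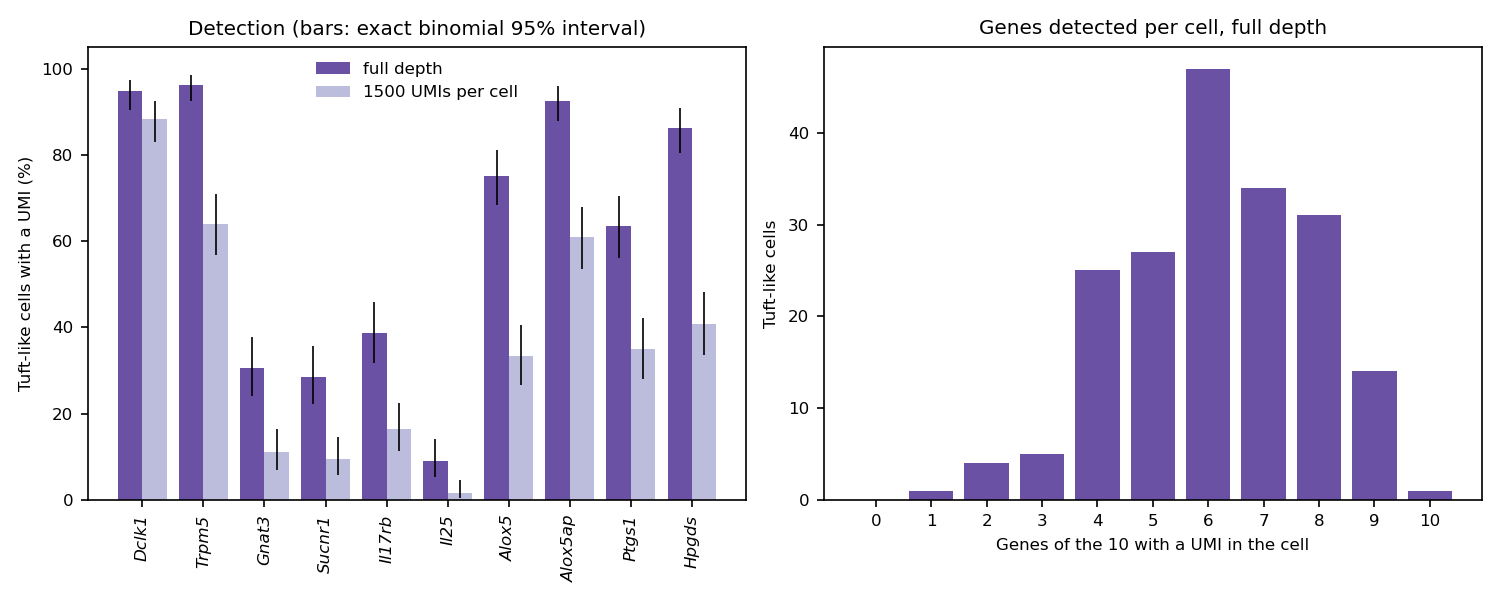
The left panel plots the percentage of the 189 tuft-like cells with a UMI of each gene at full depth and at 1500 UMIs per cell, with exact binomial 95% intervals, and the right panel the number of the 10 genes found per cell. *Trpm5* and *Dclk1* are found in 96.3% and 94.7% of cells at full depth and *Il25* in 8.99%, and the commonest number of genes per cell is 6, in 47 cells.

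Other genes of the same pathways were examined as lists, and levels are CPM over all tuft-like cells. Of 12 further genes of chemosensory signal transduction, 7 were highest in tuft-like cells in all 6 libraries, where 4.2% of genes were, a share that also stands behind the counts of this kind for the lists that follow. The most abundant were *Atp2a3*, a calcium pump of internal stores (1187 CPM), *Itpr2*, a calcium release channel (746 CPM), and *Gnai2*, an inhibitory G protein subunit (618 CPM). The phospholipase *Plcb2* was lower in HFD VSG than in HFD sham in both fractions, by -1.75 in crypt-labelled (43 against 29 UMIs) and -1.88 in villus-labelled libraries (60 against 144 UMIs). In villus-labelled libraries 4 of the 7 list genes with enough UMIs were 2-fold lower and 0 higher, where 10.6% of all tested genes were lower and 7.36% higher and the tuft markers were at -0.77. In crypt-labelled ones 1 of 6 was lower and 1 higher, where 2.33% were lower and 17.5% higher. The higher one was *Gng13*, a G protein gamma subunit, at 1.51 with 71 against 5 UMIs, and at -0.05 in villus-labelled libraries. Of taste receptor subunits, *Tas1r1* had 1 UMI and *Tas1r3* 19 UMIs in 18 tuft-like cells.

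Of 14 genes of eicosanoid synthesis and export, 2 were highest in tuft-like cells in all 6 libraries. These were *Ltc4s*, the leukotriene C4 synthase, at 532 CPM, and *Pla2g4a*, the phospholipase that frees arachidonic acid, at 232 CPM. *Ptges3*, a co-chaperone also described as a prostaglandin E synthase, was at 174 CPM and highest in cycling progenitor-like cells. *Ptges*, *Ptgds*, *Tbxas1* and *Alox12* had 0 UMIs in tuft-like cells. *Lta4h*, which makes leukotriene B4, was at 49.4 CPM in tuft-like cells and at 172 CPM in the shallow cluster led by haemoglobin genes. In HFD VSG villi against HFD sham villi, 1 of 4 list genes with enough UMIs was 2-fold lower (*Pla2g4a*, -1.23), where 10.6% of all tested genes were.

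Of 12 genes of the type 2 cytokine circuit, *Il13ra1*, a receptor subunit for interleukin 13, was highest in tuft-like cells in all 6 libraries, at 483 CPM. *Stat6*, the transcription factor below that receptor, was at 101 CPM and *Il4ra* at 59.3 CPM, and *Il17ra*, the partner subunit of Il17rb, at 14.0 CPM. *Il13*, *Il4*, *Il5* and *Il9* had 0 UMIs in tuft-like cells. Of the 1 to 3 genes of this list with enough UMIs, 0 differed by 2-fold in each comparison between groups.

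Of 9 regulators, 6 were highest in tuft-like cells in all 6 libraries, among them *Sox9* (619 CPM) and *Zfhx3* (352 CPM). *Sox4* was the most abundant regulator (673 CPM) and was highest in tuft-like cells in 4 libraries. *Sox4*, a factor of the progenitor stage of secretory lineages, was at 111 CPM in LFD sham crypts, 627 in LFD sham villi, 187 in HFD sham crypts, 360 in HFD sham villi, 901 in HFD VSG crypts and 1048 in HFD VSG villi. It was higher in HFD VSG than in HFD sham by 2.27 in crypt-labelled libraries, where 17.5% of genes were 2-fold higher, and by 1.54 in villus-labelled ones, where 7.36% were. The crypt-labelled value rests on 8 UMIs in HFD sham, 6 of them in 1 cell, against 193 UMIs in HFD VSG, of which 74 were in 1 cell, and in HFD VSG villi 118 of 537 UMIs were in 1 cell. The 10 tuft-like cells without a *Dclk1* UMI, 5 of them in HFD VSG villi and 3 in HFD VSG crypts, had 3601 CPM of *Sox4*, and the other 179 had 392 CPM. In the villus-labelled comparison 2 of the 7 regulators with enough UMIs were 2-fold higher and 2 lower, with a median of -0.77, and *Zfhx3* was among the lower ones at -1.0019. Of 10 genes otherwise known from blood cells, 8 were highest in tuft-like cells in all libraries, among them *Cd24a* (3259 CPM) and *Fyb* (1537 CPM).

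Markers of several immune cell types were at or near 0 in tuft-like cells. Of 8 macrophage and dendritic cell markers 6 had 0 UMIs and the list summed to 2 UMIs. Group 2 innate lymphoid cell markers summed to 4 UMIs, all of *Areg*, and B and plasma cell markers to 15, of which 14 were *Cd79b*. Of 7 mast cell markers, 5 had 0 UMIs, *Mcpt1* had 1 and *Kit* had 415, at 241 CPM, and *Kit* was highest in tuft-like cells in all 6 libraries. The 12 markers that named the immune-like class, chiefly of lymphocytes, were higher. They were at 93.7 to 368 CPM in 5 libraries. In HFD VSG crypts they were at 1162 CPM, with 11 of 12 detected in the 24 tuft-like cells. In HFD sham crypts and villi 1 and 2 of the 12 were detected, at 257 and 123 CPM. *Ptprc*, 1 of these 12, is also on the list of genes otherwise known from blood cells. In HFD sham crypts and villi it was at 257 and 120 CPM, and gave 11 of 11 and 40 of 41 UMIs of the 12. In LFD sham crypts, LFD sham villi and HFD VSG villi *Ptprc* was at 345, 85.1 and 68.3 CPM. The 12 markers, *Ptprc* included, summed there to 368, 121 and 93.7 CPM, and *Ptprc* gave 59 of 63, 38 of 54 and 35 of 48 UMIs. In HFD VSG crypts *Ptprc* was at 355 CPM. Without tuft-like cells with at least as many UMIs of immune, goblet or EEC markers as of tuft markers, the sum of the 10 genes in HFD VSG over HFD sham crypts was -0.01 in place of -0.02. That exclusion took 1 of 24 cells from HFD VSG crypts and 0 of 10 from HFD sham crypts, so it could move the sum little. The part of the immune markers was not tested.

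The genes most like each of the 10 were sought among 5035 genes by Pearson's r of log2(CPM + 1) over 70 class-by-library sums of at least 20 cells, of which 5 were tuft-like. *Sh2d6* (r = 0.976) and *Bmx* (0.965) were most like *Dclk1*, and *Hmx2* (0.972) and *Sh2d6* (0.971) most like *Alox5*, all of them markers that named the class. *Rgs22* (0.963) was most like *Trpm5*, *Adgrg2* (0.963) and *Pcdh20* (0.956) most like *Gnat3*, and *Vmn2r26* (0.976) and *Siglecf* (0.959) most like *Sucnr1*. *Itprid1* (0.944) and *Chat* (0.930) led for *Il17rb*, *Spib* (0.947) for *Alox5ap*, *Tspan6* (0.922) for *Ptgs1* and *Pea15a* (0.941) for *Hpgds*, and *Adgrg2* (0.874) for *Il25*. For the sum the 5 most like were *Avil* (0.920), *Pik3r5* (0.919), *Pygl* (0.913), *Matk* (0.909) and *Lrmp* (0.908), of which *Avil* and *Lrmp* are class markers. The points share libraries and depth, and most of them are not tuft-like.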

How the data were processed

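Per the labels, sequencing reads were mapped by the authors to the mm10 genome (Cell Ranger 6.0.0). The deposited files used here hold the count of UMIs per gene and barcode as Cell Ranger wrote it, both for every barcode and for those called as cells. The authors' own free RNA correction and tests of differential expression were not used here. The 6 libraries had 7765 to 12012 called barcodes with 60522766 to 155522445 UMIs. Pairs of libraries shared 17 to 43 barcodes.

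Cells were kept at 750 or more genes and at most 20% mitochondrial UMIs. Each barcode was scored by its nearness to simulated doublets (2 per barcode), and the highest-scoring barcodes were removed at a rate that grew with the number called (482 to 1154 per library). Integration used Seurat 5.3.0 with sctransform 0.4.2 in R 4.3.3 (2000 genes, 30 components, resolution 0.4), leaving out the 10 genes. A cluster took the name of a class when over 50% of its markers were at least 2 times the median cluster and in at least 10% of cells. It stayed unnamed where genes of damaged droplets or markers of another class led it, or where, enterocytes aside, none of its own markers was among its 10 leading genes. These thresholds were set after seeing the clusters, and clusters 2, 3, 5 and 6 stayed unnamed.

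Levels are UMIs summed per class and library in CPM with exact Poisson intervals, and ratios have exact conditional binomial intervals (scipy 1.17.1, Python 3.11.15). Sums under 3 UMIs were set to 3 in ratios. In tuft-like sums simulated as Poisson counts for HFD sham over LFD sham villi (3325 genes), 96.5% of the intervals of 200 changed genes held the true ratio. The simulation has the counting model of the intervals. It therefore checks their calculation and leaves out UMIs gathered in single cells and differences between mice. Of the other lists, the 3 genes of highest CPM and those 2-fold different in the same direction in both fractions were named, and other list genes were named after their values were seen. The values of 1 gene that this rule names are not reported here. For likeness, the 2 leading genes for each gene were sought, and not all are printed. The 10 genes, the lists and the markers were chosen with earlier results of these data known.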

Additional observations from a re-analysis of the deposited data

Results flagged for a closer look

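*Hpgds* in tuft-like cells was higher in HFD VSG than in HFD sham crypts, by 0.987 on the log2 scale (0.13 to 1.98, 119 against 12 UMIs), and lower in villi, by -0.604 (-0.92 to -0.29, 175 against 173 UMIs). It stands here because the fractions, of 1 library each, went in opposite directions. Relative to the 12 tuft markers both fractions were above 0, at 1.20 in crypts and 0.16 (-0.15 to 0.47) in villi. The difference between the fractions was not tested.

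Of 389 called barcodes with at least 4 of the 12 tuft markers, 68 failed the filters and entered no comparison, 46 of them by mitochondrial UMIs and 28 by the number of genes. They held 881 UMIs of the 10 genes. A further 74 passed the filters and were removed as doublets.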

How the results depend on the processing

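Groups were compared with 1 library each per fraction, which leaves no pairs to test. The crypt and villus libraries form 1 pair in each of the 3 groups. They are only set side by side, and no paired test was made over them. The count of genes highest in tuft-like cells in all libraries was 9 and ran from 7 (cells thinned to 1500 UMIs) to 10 (doublets kept, or without HFD sham villi) over the alternatives. The log2 ratio of the 10 genes summed moved by more than its counting interval as follows, and the cause was not tested. For HFD VSG over HFD sham villi (-1.03) it was -0.90 with doublets kept, -0.88 at 10% mitochondrial UMIs, -1.34 with tuft-like cells defined by 4 of 12 markers, -0.92 after subtraction of 30% free RNA, -0.85 with median-of-ratios scaling, -1.14 without the top cell of each gene and -0.26 relative to the 12 tuft markers. For HFD VSG over HFD sham crypts (-0.02) it was -0.30 at 10% mitochondrial UMIs and -0.30 by 4 of 12 markers. For HFD sham over LFD sham it was -0.22 in crypts (0.06) relative to the tuft markers, and in villi (0.61) 0.25 with doublets kept, 0.74 by 4 of 12 markers and 0.34 relative to the tuft markers. For HFD VSG over LFD sham it was -0.17 in crypts (0.04) at 10% mitochondrial UMIs, and in villi (-0.41) -0.65 with doublets kept, -0.18 at 10% mitochondrial UMIs, -0.60 by 4 of 12 markers and 0.076 relative to the tuft markers. The other 60 values of the sum stayed within their intervals, and 607 values of single genes stayed and 56 moved. Tuft-like cells numbered 243 with doublets kept, 247 by 4 of 12 markers and 108 at 10% mitochondrial UMIs, where HFD sham crypts had 4. By 4 of 12 markers the tuft-like share was 1.17% in HFD VSG villi (0.573%) and 2.14% in LFD sham villi (1.55%), and at 10% mitochondrial UMIs it was 2.07% in HFD sham villi (1.51%) and 1.24% in HFD VSG crypts (0.527%). The scaling to tuft markers, also of crypt over villus ratios, and the exclusion of mixed cells or of a HFD sham library were chosen after seeing the data. Depth limits *Il25*, *Sucnr1* and *Il17rb* most, which had 1, 1 and 2 UMIs in HFD sham crypts.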

Other observations

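*Trpm5* was found outside tuft-like cells in a cluster of 1044 enterocyte-like cells led by *Ly6m*, *Ada*, *Clca4a* and *Nt5e*, a result singled out after its values were seen. It stood there at 5.74 CPM in LFD sham crypts, 9.31 in LFD sham villi, 12.5 in HFD sham crypts, 7.07 in HFD sham villi, 6.40 in HFD VSG crypts and 0 in the 18 cells of HFD VSG villi. In the other enterocyte-like cells the levels ran from 0.204 to 1.01 CPM. The cells of the cluster had median depths of 4702 to 12094 UMIs per library, against 13634 to 34803 in the other enterocyte-like cells. No cell of it held more than 2 *Trpm5* UMIs. *Dclk1* had 1 UMI in the cluster. In free RNA pooled over libraries *Dclk1* was at 5.88 CPM and *Trpm5* at 2.70 CPM. In LFD sham villi both were at 6.66 CPM, and in HFD VSG crypts they were at 2.61 and 2.83 CPM. The part of free RNA in the *Trpm5* signal was not tested. *Trpm5* overlaps *Tssc4* on the opposite strand, and the part of strand was not tested.

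The 10 tuft-like cells without a *Dclk1* UMI, also singled out after the values were seen, had a median of 15211 UMIs, against 6749 in the 179 cells with one. All 10 held *Hpgds*, 9 held *Trpm5*, 6 held *Alox5ap*, 2 held *Ptgs1* and 2 held *Il17rb*, and 0 held *Alox5*, *Gnat3*, *Sucnr1* or *Il25*. Of the 179 cells, 142 held *Alox5*, 58 *Gnat3*, 54 *Sucnr1* and 17 *Il25*. *Sox4* was found in 9 of the 10 at 3601 CPM, and in 58.7% of the 179 at 392 CPM. They held a median of 7.5 of the 12 tuft markers, against 11.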
